A study of Caenorhabditis elegans with 83 samples.

Results

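The genes described here are 10 Caenorhabditis elegans genes that build and anchor the contractile unit of muscle. They were taken by gene name, not by a threshold on their small RNA levels, and with earlier results of these data known. They are 10 of the 20449 genes counted in the SX1263 libraries and of the 20390 genes counted in the EG6089 libraries. A sarcomere slides thick filaments of myosin along thin filaments of actin and tropomyosin; giant proteins of the titin class hold and regulate the thick filaments, and integrins in the cell membrane anchor the whole lattice to the underlying matrix. The label speaks of body wall muscle, and this fits 8 of the genes, whereas myo-1 and myo-2 encode myosins of the pharynx. What was measured is not the mRNA of these genes but the small RNAs that map to them. In C. elegans, Argonaute proteins carry short RNAs made largely by RNA-dependent polymerases on mRNA templates, and a share of these small RNAs can pass from parents to progeny. MET-2 and SET-25 are histone methyltransferases of lysine 9 on histone H3, MET-2 being known for the first methylation steps and SET-25 for trimethylation.

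Small RNAs of whole day 1 adults grown at 20 °C were sequenced in 83 libraries that fall into 28 groups of strain, generation and treatment, each of 3 libraries apart from wild type SX1263 at P0 on anti-GFP bacteria, which had 2. In the SX1263 GFP reporter strain (59 libraries) the met-2(n4256) mutant was followed at P0, F3 and F15, the set-25(n5021) mutant and the met-2(n4256);set-25(n5021) double mutant at P0 and F3, and wild type at all 3 generations; in the EG6089 GFP reporter strain (24 libraries) the double mutant and wild type were followed at P0 and F3. All groups carry a GFP reporter. P0 animals ate bacteria that make anti-GFP double-stranded RNA, or control bacteria with an empty vector, and their descendants grew on OP-50, so a step between P0 and a later generation is also a change of food. Nothing in the labels says that replicates came from separate cultures, so the p-values measure the spread between these libraries only. The sources allow either of a pair of small RNA library kits and do not say which was used for which library. Counts assigned to genes ran between 3583283 and 18225929 per SX1263 library and between 2134929 and 6102965 per EG6089 library. A total of 3 counts, taken as the limit of detection, stood for 0.183 to 1.06 CPM, the usual unit of counts scaled to library size, in an SX1263 library and for 0.480 to 1.30 CPM in an EG6089 library; such limits and the intervals below cover counting error only. Levels below are CPM after trimmed mean scaling (TMM) within each reporter strain. Counts on the met-2 gene itself averaged 97.9 CPM in met-2 mutants and 335.5 CPM in wild type at P0, and counts on set-25 averaged 173.7 CPM in set-25 mutants and 251.6 CPM in wild type, so each mutant was low for its own gene; counts on set-25 were also low in met-2 mutants, at 181.1 CPM, and these are small RNAs and not mRNA.

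In wild type SX1263 animals the 10 genes spanned a wide range of small RNA levels. Per kilobase of annotated exon, pat-3 and lev-11 stood first at F3, with means of 27.7 ± 0.0787 and 23.2 ± 4.46 CPM per kilobase in control libraries (SD, n = 3 each), with every pat-3 library above every lev-11 library. The myosin gene unc-54 followed at 2.41 ± 0.142 CPM per kilobase and pat-2 at 0.482 ± 0.0920, each apart from its neighbours in every library. The giant genes unc-22, ttn-1 and unc-89 lay between 0.0606 and 0.178 CPM per kilobase on average, and the other 3 myosin genes, myo-1, myo-3 and myo-2, at or below 0.0438. For those 3 the wild type libraries held almost nothing. Over all 17 wild type SX1263 libraries the highest single value was 0.427 CPM for myo-3, 0.443 CPM for myo-1 and 0.344 CPM for myo-2, all under or near the limit of detection. A library of whole animals cannot tell fewer cells of a type from less RNA per cell, and a count on a muscle gene does not show which cell the small RNA came from.

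**Figure D1:**
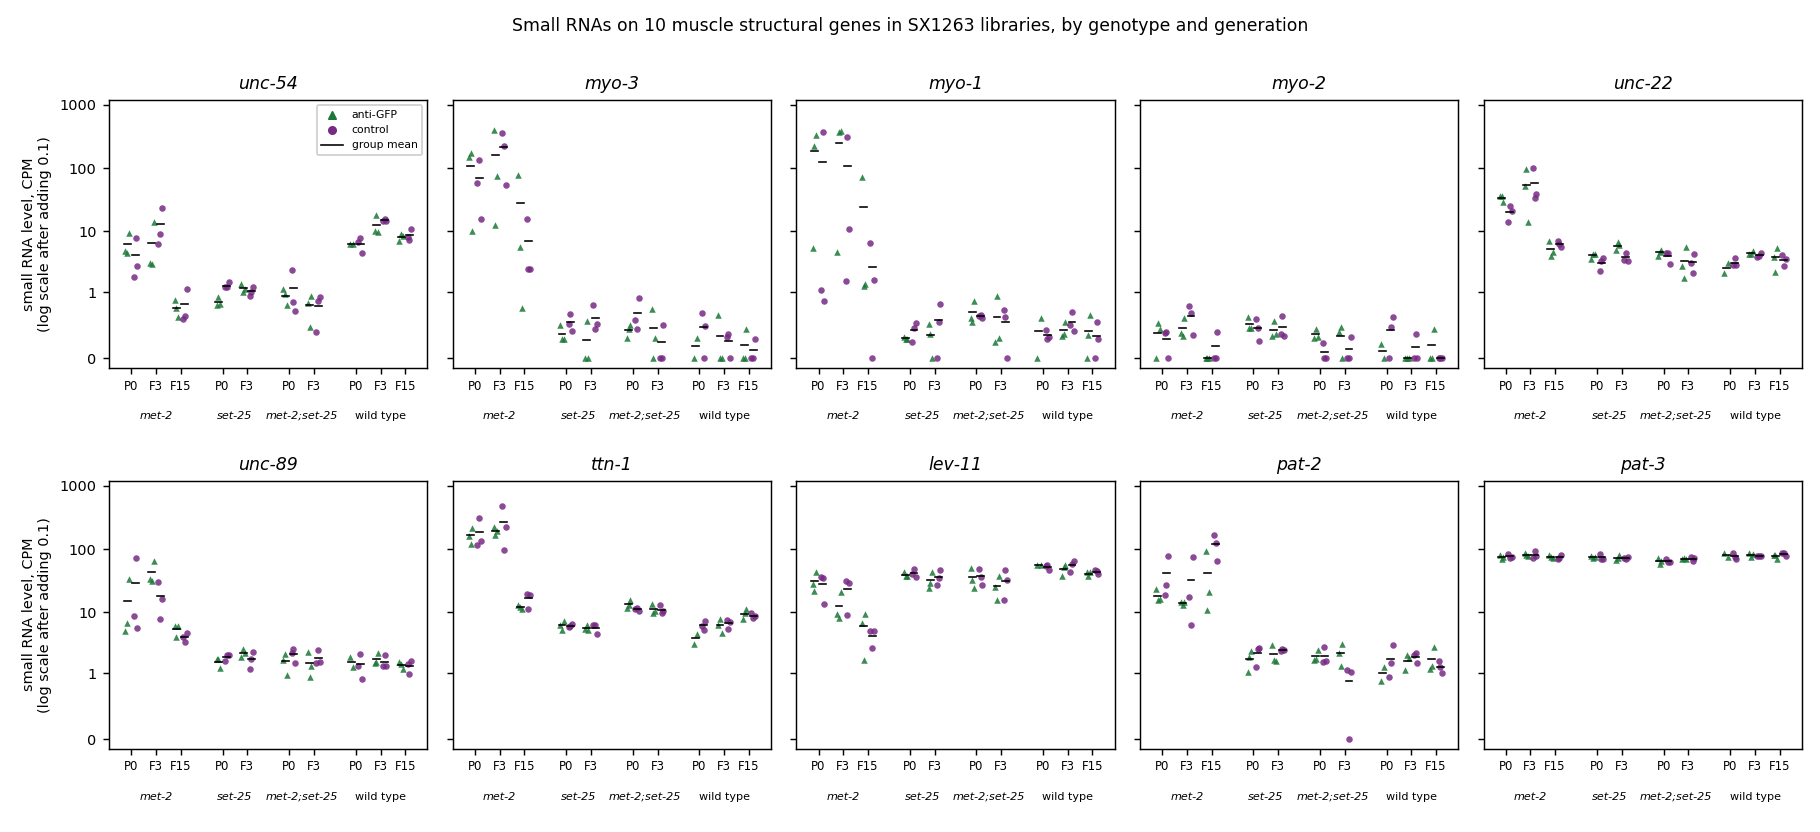
Small RNA level of each of the 10 muscle genes in every SX1263 library (points; bars mark group means; log scale in CPM after adding 0.1), by genotype and generation, with anti-GFP and control libraries drawn with different markers. myo-3, myo-1, unc-22, unc-89, ttn-1 and pat-2 stand high in met-2 libraries at P0 and F3, unc-54 stands low in set-25 and met-2;set-25 libraries, and pat-3 lies between 58.4 and 91.9 CPM everywhere.

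In met-2 controls the small RNAs on 6 of the 9 testable genes were higher than in wild type at P0. The same 6 genes were higher at F3. They were the body wall myosin gene myo-3, the pharyngeal myosin gene myo-1, all 3 giant sarcomere genes unc-22, unc-89 and ttn-1, and the integrin alpha gene pat-2. The integrin beta gene pat-3, the major body wall myosin gene unc-54 and the tropomyosin gene lev-11 did not pass the test in either generation, though lev-11 came close on the lower side, and myo-2 was too low to be tested. Calls rest on a Benjamini-Hochberg adjusted p under 0.05 in edgeR's quasi-likelihood test across all genes. At P0 the log2 change of unc-54 was -0.63 (adjusted p = 0.413). Without met-2 replicate 2 it was -1.52 and called lower (adjusted p = 0.0368). Across all genes tested, 13.5% were higher and 9.93% lower in met-2 than in wild type control libraries at P0, and 17.9% were higher and 10.3% lower at F3. The members were chosen with earlier results of these data known, so an excess over these shares is a description and no independent support. myo-1 and myo-3 passed the filter on low counts through the met-2 libraries alone, so their presence among the tested genes already depended on a high met-2 value.

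The titin-like gene ttn-1 (WBGene00006436; WBcel235 chromosome V, 6120909 to 6202632, minus strand) had the lowest adjusted p of the 9 genes in both generations. At P0 its small RNAs reached 116, 311 and 135 CPM in the 3 met-2 control libraries, against 6.04, 5.18 and 7.22 CPM in the wild type ones. At F3 they reached 472, 95.7 and 225 CPM in met-2, against 7.51, 5.46 and 6.87 CPM in wild type. Every met-2 library lay far above every wild type library of its generation. The log2 changes were 4.93 (SE 0.343, adjusted p = 9.83e-09) at P0 and 5.33 (SE 0.431, adjusted p = 5.70e-08) at F3, which is 30.4-fold and 40.2-fold.

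The twitchin gene unc-22 (WBGene00006759; chromosome IV, 11972697 to 12011007, minus strand), whose product sits in the thick filament and limits contraction, showed a smaller and tighter gain at P0. Its level was 14.1, 25.4 and 21.2 CPM in met-2 libraries and 2.87, 3.70 and 2.87 CPM in wild type. At F3 the level was 102, 33.5 and 38.8 CPM in met-2 and 3.93, 3.98 and 4.52 CPM in wild type. The groups did not overlap in either generation, and the log2 changes were 2.67 (SE 0.259, adjusted p = 5.76e-07) at P0 and 3.82 (SE 0.566, adjusted p = 6.37e-05) at F3. The obscurin gene unc-89 (WBGene00006820; chromosome I, 4035702 to 4090885, plus strand), needed for the M-line that joins thick filaments, had 8.66, 71.8 and 5.53 CPM in met-2 at P0 and 1.34, 2.12 and 0.802 CPM in wild type. At F3 unc-89 had 30.3, 7.71 and 16.3 CPM in met-2 and 1.31, 2.07 and 1.34 CPM in wild type. One met-2 library at P0, replicate 2, was far above the other 2, although all 3 exceeded the wild type libraries. The log2 changes of unc-89 were 4.33 (SE 0.877, adjusted p = 0.00128) at P0 and 3.53 (SE 0.469, adjusted p = 1.84e-05) at F3, and without that replicate the P0 change was 2.28 and remained called.

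The integrin alpha gene pat-2 (WBGene00003929; chromosome III, 8818899 to 8825266, plus strand) encodes the partner of pat-3 in the receptor that fixes dense bodies and M-lines to the basement membrane. Its small RNAs stood at 18.7, 27.4 and 78 CPM in met-2 at P0 and at 0.853, 1.48 and 2.98 CPM in wild type. At F3 they stood at 17.2, 6.31 and 74.6 CPM in met-2 and at 2.03, 2.21 and 1.51 CPM in wild type. Replicate 3 was the highest met-2 library in both generations, and the groups stayed apart. The log2 changes of pat-2 were 4.56 (SE 0.548, adjusted p = 7.06e-06) and 4.09 (SE 0.669, adjusted p = 1.61e-04), and without met-2 replicate 3 the F3 change was 2.56 and still called. Chromosome III also carries met-2 and set-25, and whether sequence linked to the mutant alleles has a part in this was not tested. The partner gene pat-3 (WBGene00003930; chromosome III, 3908931 to 3914149, minus strand) did not follow it. pat-3 had 84.3, 71.4 and 76.0 CPM in met-2 at P0, against 88.1, 74.2 and 70.4 CPM in wild type, and its log2 changes were -0.02 (SE 0.113) at P0 and 0.03 (SE 0.0811) at F3.

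The myosin gene myo-3 (WBGene00003515; chromosome V, 12226817 to 12234343, minus strand), whose heavy chain lies at the centre of body wall thick filaments, was near the limit of detection in wild type and above it in all met-2 libraries of P0 and F3. It held 58.3, 136 and 15.7 CPM in met-2 at P0 and 0.427, 0 and 0.229 CPM in wild type. At F3 it held 366, 224 and 55.2 CPM in met-2 and 0.119, 0.148 and 0 CPM in wild type. In summed reads this was 4555 counts in met-2 and 2 counts in wild type at F3, a depth-corrected ratio of 2219 with a 95% counting interval of 614 to 18330. The fitted log2 changes, 8.06 (SE 1.09, adjusted p = 2.50e-05) at P0 and 10.92 (SE 1.43, adjusted p = 1.64e-05) at F3, depend on the prior count at such low wild type levels.

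The pharyngeal myosin gene myo-1 (WBGene00002348; chromosome I, 7258946 to 7267057, minus strand) differed from library to library within the mutant. At P0 the met-2 control libraries held 1.09, 375 and 0.7 CPM, against 0.183, 0.106 and 0.115 CPM in wild type. At F3 they held 1.59, 315 and 11 CPM, against 0.238, 0.443 and 0.168 CPM in wild type. Replicate 2 carried nearly all of the signal in both generations, and the other met-2 libraries lay between 0.7 and 11 CPM. The log2 changes were 9.68 (SE 2.23, adjusted p = 0.00365) at P0 and 8.45 (SE 1.89, adjusted p = 0.00243) at F3. Without met-2 replicate 2 they were 2.52 (adjusted p = 0.312) and 4.42 (adjusted p = 0.0502), so the myo-1 call rests on that replicate. The other pharyngeal myosin gene, myo-2 (WBGene00003514; chromosome X, 12468061 to 12475348, plus strand), never exceeded 0.577 CPM in any of the 18 met-2 libraries.

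lev-11 had 36.3, 34.7 and 13.6 CPM in met-2 controls at P0 and 53.3, 56.5 and 46.1 CPM in wild type, and at F3 31.6, 8.98 and 29.1 CPM in met-2 and 43.4, 58.1 and 64 CPM in wild type. The met-2 libraries lay below the wild type ones in both generations. The log2 changes were -0.89 (SE 0.324, adjusted p = 0.0546) at P0 and -1.23 (SE 0.470, adjusted p = 0.0577) at F3, just outside the threshold. DESeq2 and the replicate block called lev-11 lower in both generations, with adjusted p of 0.0379 and 0.0251 at P0 and of 0.0372 and 0.0286 at F3, which makes 7 of 9 genes.

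**Figure D2:**
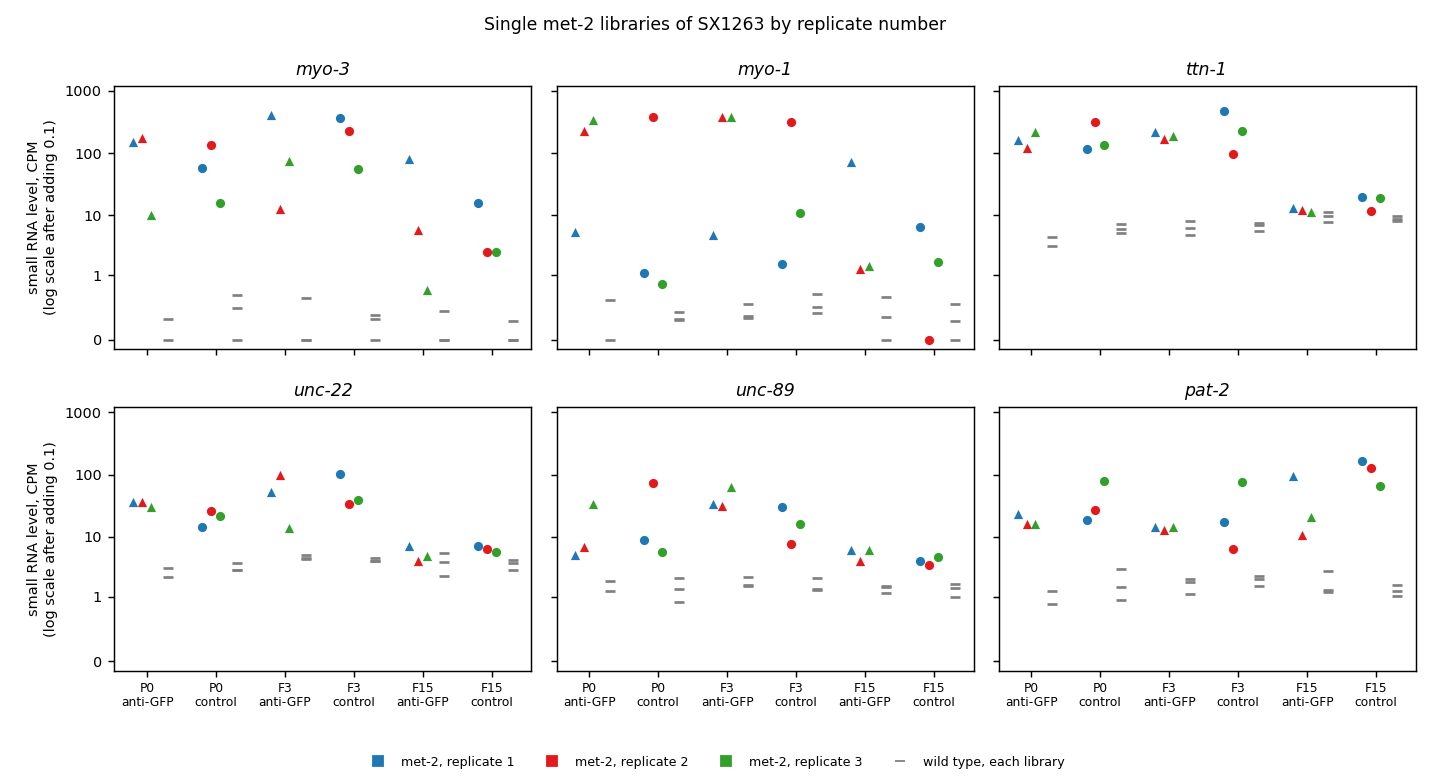
Small RNA level of 6 muscle genes in each met-2 SX1263 library (circles for control and triangles for anti-GFP, coloured by replicate number) and in each wild type library (grey dashes), on a log scale of CPM after adding 0.1. For myo-1 the libraries of one group spread from 1.59 to 315 CPM at F3 control, whereas the highest wild type value of myo-1 is 0.443 CPM.

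The anti-GFP libraries, further libraries of the same genotypes, gave the same 6 genes at P0 and F3. The labels do not show them to be an independent repeat. Within met-2, anti-GFP and control libraries with the same replicate number deviated together from their group means. The correlations were 0.528, 0.193 and 0.164 at P0 and 0.134, 0.282 and 0.196 at F3. Libraries with different numbers reached 0.207 at P0, above 2 of these 3 values, and 0.0116 at F3, below all 3. At P0, 6 of 9 genes were called in met-2 against wild type, with 19.2% of all genes called in either direction, and at F3, 7 of 9, with 28.6% of all genes called. The log2 changes at P0 were 3.66 for unc-22, 3.24 for unc-89, 5.42 for ttn-1 and 4.18 for pat-2. At F3 they were 3.51 for unc-22, 4.54 for unc-89, 4.88 for ttn-1, 3.02 for pat-2 and 10.30 for myo-1, and lev-11 was called lower (-1.99). unc-54 was not called at F3 (-0.98, adjusted p = 0.193), but without met-2 replicate 3 it was called lower (-2.135, adjusted p = 0.0041). For myo-3 wild type held 1 count at P0 and 3 at F3, which gave depth-corrected ratios of met-2 over wild type of 1884 (95% counting interval 338 to 74450) and 1161 (397 to 5631). For myo-1 at P0 wild type held 3 counts, a ratio of 1763 (603 to 8554). In these libraries the high myo-1 values were spread differently over the replicates. At P0 the met-2 libraries held 5.36, 222 and 338 CPM of myo-1 in replicates 1, 2 and 3, and at F3 they held 4.76, 372 and 384 CPM. Replicate 3, near wild type levels in the P0 control library, was the highest in the anti-GFP library of the same number. myo-3 showed the reverse at P0, where replicate 3 had 10.2 CPM and replicates 1 and 2 had 148 and 172 CPM. The P0 call of unc-89 was lost in 4 of the alternative fits, with an adjusted p of up to 0.202, and that of myo-1 in 3, with an adjusted p of up to 0.138.

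Libraries of 1 group differed widely on these genes in met-2. On the scale of log2(CPM + 1), the median range over the 3 libraries of a group was 1.82 for the 10 genes in met-2 F3 controls, against 0.396 for all genes in the same libraries, the widest of the 6 met-2 groups. In the other met-2 groups it was 1.54 (P0 control), 0.857 (P0 anti-GFP), 1.14 (F3 anti-GFP), 0.715 (F15 control) and 0.598 (F15 anti-GFP), against 0.377 to 0.512 for all genes. In wild type F3 controls the median range was 0.252 for the 10 genes and 0.271 for all genes. The added 1 narrows the range of genes below 1 CPM, such as myo-1, myo-2 and myo-3 in wild type. A contrast of genotypes on this scale therefore mixes level with spread. Genes whose libraries differed more than 16-fold on this scale made up 0.457% to 0.929% of all genes in the 6 met-2 groups and at most 0.457% in any other SX1263 group. myo-1 had the widest range of the 10 in every met-2 group of P0 and F3, between 5.74 and 7.79.

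At F15 met-2 libraries had fewer small RNAs than wild type on unc-54 and lev-11, far more on pat-2, and more on myo-3, unc-89 and ttn-1. Of 8 testable genes, 4 were higher (myo-3, unc-89, ttn-1 and pat-2) and 2 lower (unc-54 and lev-11) in met-2 than in wild type controls, where 19.1% of all genes were higher and 17.4% lower. myo-3, unc-89 and pat-2 passed the filter through met-2 libraries, with pat-2 over it in 1 wild type library too. unc-54 passed it through wild type libraries, with 0 met-2 libraries over it. So the 8 are not a neutral sample of the 10.

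pat-2 reached its highest values at F15, with 164, 125 and 65.3 CPM in met-2 control libraries and 1.61, 1.26 and 1.02 CPM in wild type. The log2 change was 6.51 (SE 0.931, adjusted p = 8.01e-04), or 91.0-fold. In the anti-GFP libraries of F15 pat-2 had 94.8, 10.7 and 20.7 CPM in met-2, all above the wild type values of 1.19, 1.31 and 2.72 CPM, a log2 change of 4.6 (SE 0.881, adjusted p = 0.00440).

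The giant genes differed less from wild type than pat-2 did. ttn-1 had 19.6, 11.4 and 18.9 CPM in met-2 at F15 and 9.67, 7.97 and 8.76 CPM in wild type, a log2 change of 0.91 (SE 0.236, adjusted p = 0.0122) that was no longer called without wild type control replicate 2 (adjusted p = 0.0502). unc-22 had 6.95, 6.19 and 5.62 CPM in met-2 and 4.12, 2.80 and 3.67 CPM in wild type, and did not pass the test (log2 change 0.81, SE 0.355, adjusted p = 0.0985). unc-89 had 4.04, 3.38 and 4.63 CPM in met-2 and 1.43, 0.979 and 1.63 CPM in wild type (log2 change 1.54, SE 0.314, adjusted p = 0.00358). For all 3 genes the met-2 libraries still lay above the wild type ones. myo-3 had 15.8, 2.44 and 2.48 CPM in met-2 and 1 count in total in wild type, a ratio of 162 with a 95% counting interval of 28.5 to 6441. Its call (adjusted p = 0.0469) was lost when any of the 6 libraries was left out, with an adjusted p of up to 0.152.

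unc-54 (WBGene00006789; chromosome I, 14855901 to 14863482, minus strand), which encodes the most abundant myosin heavy chain of body wall muscle, had 0.323, 0.375 and 1.16 CPM in met-2 controls at F15 and 8.06, 7.28 and 10.8 CPM in wild type. The log2 change was -3.78 (SE 0.435, adjusted p = 1.19e-04). lev-11 (WBGene00002978; chromosome I, 14621169 to 14631094, minus strand), the tropomyosin gene, had 5.01, 2.63 and 4.96 CPM in met-2 and 47.1, 44.4 and 40.4 CPM in wild type, a log2 change of -3.38 (SE 0.485, adjusted p = 5.69e-04). Both genes had met-2 libraries entirely below the wild type ones, though unc-54 was tested only through its high wild type libraries. The anti-GFP libraries of F15 gave 5 calls among the 8 genes, with 30.1% of all genes called: unc-54 at -3.90, lev-11 at -2.82, unc-89 at 1.92, pat-2 at 4.6, and myo-3 with 583 counts in met-2 and 1 in wild type (ratio 538, 95% counting interval 96.2 to 21300). The myo-3 counts came mostly from 1 library: the 3 met-2 libraries had 79.2, 5.67 and 0.53 CPM. Its call was lost without any one of the wild type libraries, with an adjusted p of up to 0.0761.

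**Figure D3:**
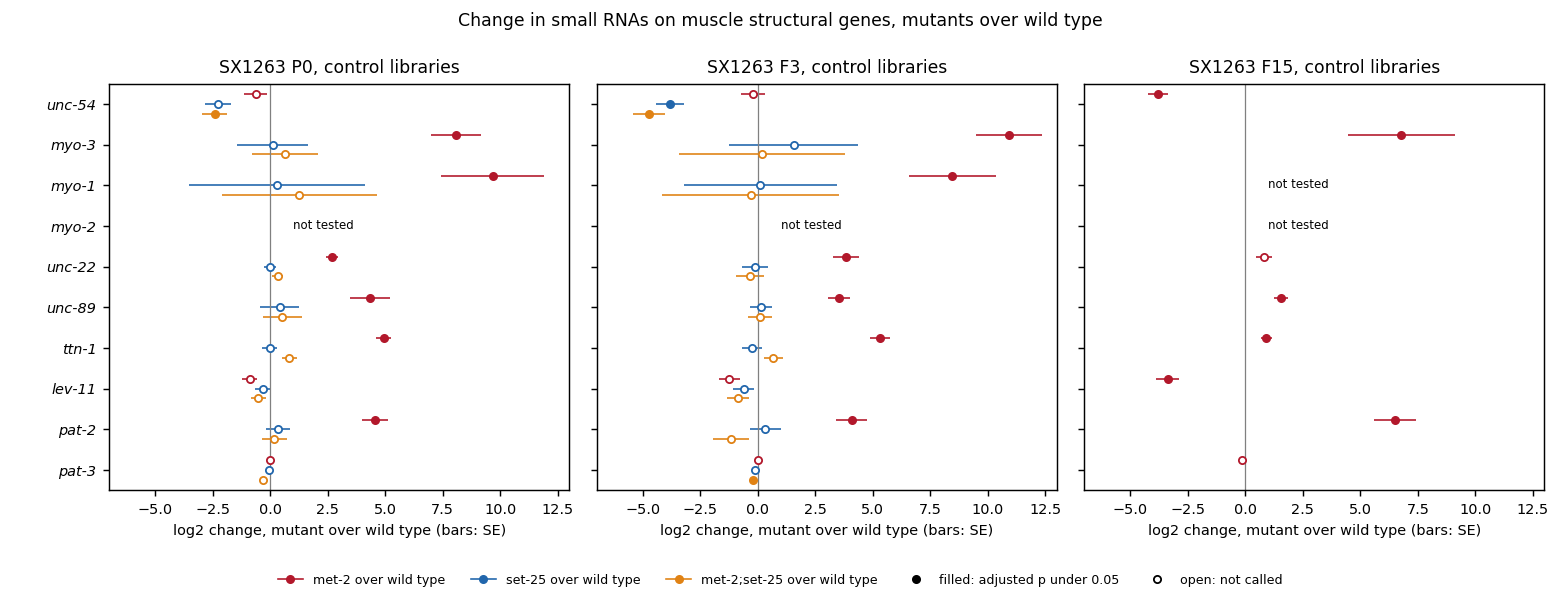
log2 change of small RNAs on each gene, mutant over wild type, in SX1263 control libraries at P0, F3 and F15, with SE as bars; filled points have an adjusted p under 0.05. In met-2, 6 genes lie to the right at P0 and F3, and unc-54 and lev-11 lie to the left at F15 with -3.78 and -3.38, while in set-25 and met-2;set-25 the largest shift is that of unc-54.

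Set against F3 within met-2 controls, F15 was lower on 7 of 9 genes and higher on pat-2, with 16% of all genes called in either direction. The log2 changes were -4.38 for unc-54, -4.96 for myo-3, -5.27 for myo-1, -3.24 for unc-22, -2.19 for unc-89, -4.01 for ttn-1 and -2.48 for lev-11, and 1.81 for pat-2. Among the control libraries of all generations, myo-3 and myo-1 passed the low-count filter through met-2 libraries alone. Wild type showed no call among the 9 genes between the same generations in edgeR, none of them at an unadjusted p under 0.05 and none in DESeq2, with 0.131% of all genes called. The difference between the genotypes was tested directly and was called for unc-54 (-3.57), unc-22 (-2.97) and ttn-1 (-4.38), with 2.9% of all genes called. The labels do not say whether F15 and F3 libraries were prepared together, so generation and preparation cannot be told apart. Without met-2 F15 replicate 2 the calls between F15 and F3 in met-2 were 5 of 9. With the 2 groups fitted alone they were 3 of 9 in met-2 and 1 of 9 in wild type (unc-54, -0.78, adjusted p = 0.0487). The unc-89 call was lost in 4 alternatives (adjusted p up to 0.146), and those of myo-3 and lev-11 in the fit of the groups alone (0.0636 and 0.059). The myo-1 call between F15 and F3 was lost in 6 alternatives. Among them were the fit without met-2 F3 replicate 2 (log2 change -1.19, adjusted p = 0.665) and the replicate block (-2.62, adjusted p = 0.312). The pat-2 call was lost in 6 alternatives, with an adjusted p of up to 0.301.

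Between P0 and F3 few of the genes were called. In met-2 controls unc-22 was 1.51 higher at F3 than at P0 on the log2 scale (SE 0.323, adjusted p = 0.0445), 1 of 9 genes, with 0.230% of all genes called, and with the replicate number as a block the call was lost (0 of 9). No gene was called in set-25 (0.0328% of all genes called), in met-2;set-25 (2.13%) or in wild type (0.189%) of SX1263. At an unadjusted p under 0.05 the counts were 0, 0 and 1, the 1 being unc-54 in wild type, and DESeq2 gave 0 in each. The difference of this step from that in wild type was called for none of the genes in met-2, set-25 or met-2;set-25 (0.0164%, 0% and 0% of all genes called), with 1 gene, 0 genes and 1 gene at an unadjusted p under 0.05 and 0 in DESeq2.

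In set-25 mutants unc-54 was the single gene of the 9 to pass the test. At F3 its small RNAs were at 0.879, 1.03 and 1.25 CPM in set-25 and at 14.4, 15.9 and 14.4 CPM in wild type, a log2 change of -3.82 (SE 0.625, adjusted p = 0.00298), or 14.1-fold lower. This was 1 of 9 genes, lower, with 0.498% of all genes higher and 0.612% lower. unc-54 passed the low-count filter at F3 through wild type and met-2 libraries, with 1 set-25 library over it. At P0 unc-54 was at 1.22, 1.24 and 1.49 CPM in set-25 and at 6.83, 7.82 and 4.47 CPM in wild type, also without overlap, but the log2 change of -2.27 (SE 0.545, adjusted p = 0.0566) did not pass. There 0 of 9 genes were called, with 0.379% of all genes higher and 0.577% lower, 1 gene at an unadjusted p under 0.05, and 1 of 9 in DESeq2 and with the replicate block. In the anti-GFP libraries unc-54 was called in set-25 at P0 (-3.20, 1 of 9 genes, 0.806% of all genes) and at F3 (-3.40, 1 of 9, 0.962%), though the P0 call was lost in each of 5 leave-one-out fits, with an adjusted p of up to 0.15.

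In the double mutant unc-54 was low as well, and none of the 6 genes raised in met-2 passed edgeR's test in control libraries. unc-54 was at 2.39, 0.673 and 0.457 CPM in met-2;set-25 at P0 and at 0.164, 0.708 and 0.831 CPM at F3, below every wild type library. The log2 changes over wild type were -2.41 (SE 0.548, adjusted p = 0.00317) and -4.72 (SE 0.710, adjusted p = 5.89e-05). At P0 this was the single call among 9 genes, with 11.2% of all genes higher and 14.1% lower, and with the replicate block 2 of 9 were called, pat-3 being added (-0.30, adjusted p = 6.25e-04). ttn-1 averaged 11.1 ± 0.717 CPM in met-2;set-25 at P0 and 6.15 ± 1.02 CPM in wild type, without overlap (log2 change 0.83, SE 0.313, adjusted p = 0.0596), and DESeq2 called it (adjusted p = 0.0494) and pat-3 (adjusted p = 0.0433), 3 of 9 in all. unc-54 passed the low-count filter at F3 through wild type and met-2 libraries, with 0 libraries of the double mutant above it. At F3 unc-54 and pat-3 were called lower, 2 of 9, with 18.6% of all genes higher and 19.7% lower. The pat-3 change was -0.21 (SE 0.0817, adjusted p = 0.0492), with 70.8 ± 4.47 CPM in met-2;set-25 and 78.8 ± 0.224 CPM in wild type (SD, n = 3 each), and it was lost under 9 alternatives. ttn-1 averaged 11 ± 1.74 CPM in met-2;set-25 at F3 and 6.61 ± 1.05 CPM in wild type (log2 change 0.68, SE 0.418, adjusted p = 0.209), and myo-3 had 2 counts in each group at F3. In the anti-GFP libraries 3 of 9 genes were called at P0, with 21.8% of all genes: unc-54 at -2.86, pat-3 at -0.37 and ttn-1 at 1.78. With the replicate block 4 of 9 were called there, unc-22 being added (0.70, adjusted p = 0.0441). At F3 unc-54 at -4.28 and pat-3 at -0.23 were called, 2 of 9, with 32.8% of all genes. The pat-3 calls were lost in 6 alternatives at P0 (adjusted p up to 0.368) and in 5 at F3 (up to 0.12), and that of ttn-1 without wild type replicate 1 (adjusted p = 0.0603).

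The mutants were also set against each other in the control libraries. Against met-2, the double mutant was lower on 7 of 9 genes at P0 (16.6% of all genes called in either direction) and on 8 of 9 at F3 (24.8%). The log2 changes at F3 were -4.53 for unc-54, -8.77 for myo-1, -4.16 for unc-22, -3.44 for unc-89, -4.65 for ttn-1, -5.27 for pat-2 and -0.24 for pat-3, and myo-3 had 2 counts in the double mutant and 4555 in met-2. At P0 they were -1.78 for unc-54, -7.42 for myo-3, -8.41 for myo-1, -2.35 for unc-22, -3.81 for unc-89, -4.10 for ttn-1 and -4.38 for pat-2. So the animals that lacked both enzymes had fewer small RNAs on the 6 genes than those that lacked MET-2 alone. In both generations myo-3 and myo-1 passed the low-count filter through met-2 libraries alone. Their place among the tested genes thus already depended on high met-2 values. Without met-2 replicate 2 the P0 change of myo-1 was -1.26, that of unc-54 -0.88 and that of unc-89 -1.76, all no longer called, which left 4 of 9 genes at P0, as did the fit of the groups alone. With the replicate block 8 of 9 were called at P0, pat-3 being added (-0.28, adjusted p = 0.00157). At F3 the pat-3 call was lost in 9 alternatives, with an adjusted p of up to 0.33. The F3 call of myo-1 was lost without met-2 replicate 2 (adjusted p = 0.0609) and with the groups alone (0.0759). DESeq2 called 7 of 9 genes at F3, and the fit of the groups alone 6.

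Against set-25, the double mutant had 0 of 9 genes called at P0 (19.8% of all genes) and at F3 (31.5%). ttn-1 came nearest, with log2 changes of 0.85 (SE 0.312, adjusted p = 0.0632) at P0 and 0.92 (SE 0.417, adjusted p = 0.102) at F3. At an unadjusted p under 0.05, 2 genes at P0 and 1 at F3 passed, and at P0 DESeq2 called 1 of 9, ttn-1 (adjusted p = 0.0434), and the replicate block called 1, pat-3 (-0.25, adjusted p = 0.00361). met-2 was higher than set-25 on 7 of 9 genes at P0 (20.2% of all genes called) and on 7 of 9 at F3 (25%): the 6 named above, and unc-54 by 1.64 at P0 and 3.63 at F3. The P0 call of unc-54 was lost in 5 alternatives, and without met-2 replicate 2 its change was 0.75 (adjusted p = 0.404) and that of myo-1 2.22 (adjusted p = 0.412). Here too myo-3 and myo-1 were among the tested genes only through their high met-2 libraries. These comparisons share libraries with those against wild type and with each other.

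In the EG6089 strain the double mutant was lower than wild type on several of the genes, and only 5 of the 10 (unc-54, unc-22, ttn-1, lev-11 and pat-3) had enough counts to be tested. At F3 4 of 5 were lower, with 23.7% of all genes higher and 27.1% lower. lev-11 had 18.8, 25.5 and 11.7 CPM in met-2;set-25 and 35.8, 33.2 and 32.5 CPM in wild type, a log2 change of -0.80 (SE 0.217, adjusted p = 0.00719). ttn-1 had 2.79, 1.70 and 5.30 CPM in met-2;set-25 and 12, 8.05 and 14.8 CPM in wild type, a log2 change of -1.60 (SE 0.362, adjusted p = 0.00204). Neither gene had overlapping groups. unc-22 had 2.09, 0.340 and 0.643 CPM in met-2;set-25 and 3.38, 5.03 and 2.91 CPM in wild type (-1.84, SE 0.571, adjusted p = 0.0151), a call resting on 11 counts in the mutant and 47 in wild type. unc-22 passed the low-count filter through wild type libraries alone in both generations of EG6089, so the 5 tested genes are no neutral sample. Its F3 call was lost without wild type replicate 2 (adjusted p = 0.0507) and without met-2;set-25 replicate 3 (log2 change -1.46, adjusted p = 0.0918).

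Counts on unc-54 were the highest of the genes in EG6089. The labels do not describe the sequence of either reporter, so small RNAs of the endogenous gene and of any unc-54 sequence that a reporter may hold cannot be told apart. At F3 it had 282, 250 and 318 CPM in met-2;set-25 and 569, 539 and 480 CPM in wild type, a log2 change of -0.79 (SE 0.124, adjusted p = 1.01e-04), or 1.73-fold lower. At P0 it had 397, 638 and 516 CPM in met-2;set-25 and 583, 869 and 576 CPM in wild type, with overlapping groups and no call (-0.45, SE 0.230, adjusted p = 0.129). Per kilobase, wild type EG6089 at F3 had 85.3 CPM of unc-54, 23.3 of pat-3 and 14.2 of lev-11, whereas in wild type SX1263 unc-54 stood below both with 2.41. The tables of the 2 strains hold different gene rows and were scaled separately, so levels set across them were not tested.

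**Figure D4:**
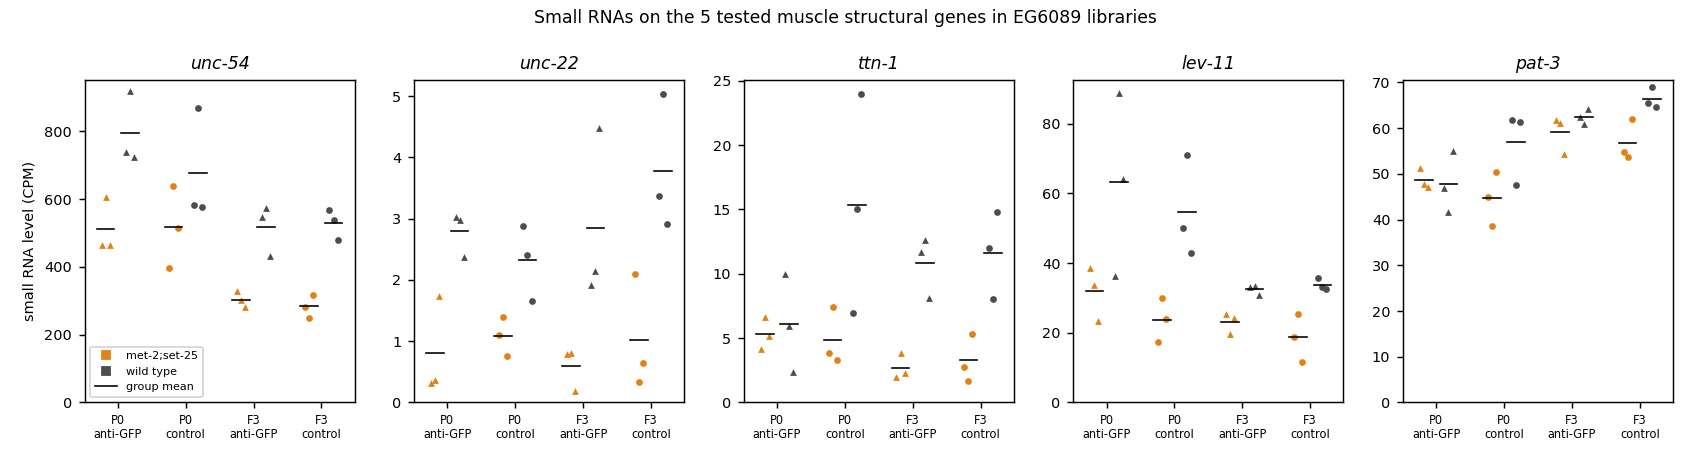
Small RNA level in CPM (linear axes from 0, scaled per gene) of the 5 tested muscle genes in every EG6089 library, met-2;set-25 in orange left of wild type in grey, at P0 and F3 (triangles for anti-GFP, circles for control, bars for group means). unc-54 lies between 250 and 919 CPM in every library, and at F3 all 6 met-2;set-25 libraries lie below all 6 wild type libraries for it.

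At P0 in EG6089, ttn-1 (-1.72, SE 0.474, adjusted p = 0.00755) and lev-11 (-1.27, SE 0.304, adjusted p = 0.00299) were lower in met-2;set-25 controls, 2 of 5 genes, with 18.5% of all genes higher and 27.4% lower. In the anti-GFP libraries 3 of 5 were called at P0 (48.6% of all genes) and 3 of 5 at F3 (50.3%), all lower: unc-54 by -0.67 and -0.66, unc-22 by -1.69 and -2.05, lev-11 by -1.03 at P0 and ttn-1 by -1.85 at F3. So many genes of all kinds were called in these comparisons that the counts are no result about muscle genes. Without wild type replicate 3 the P0 control call of ttn-1 was lost, leaving 1 of 5, and without wild type replicate 2 none of the 5 was called in the P0 anti-GFP libraries. Between F3 and P0, unc-54 was lower in met-2;set-25 EG6089 controls by -0.82 (SE 0.216, adjusted p = 0.0313), 1 of 5 genes with 8.63% of all genes called, and this call was lost in 5 of the leave-one-out fits. No gene was called in wild type (4.63% of all genes), where 2 passed an unadjusted p under 0.05 and 0 were called by DESeq2. The difference between the genotypes in this step was called for none of the 5 (0.0333% of all genes), with 0 at an unadjusted p under 0.05 and 0 in DESeq2. myo-3 and myo-1 had a count in 4 of 12 double mutant libraries each, and in 1 and 2 of 12 wild type libraries.

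Feeding on anti-GFP bacteria, or descent from animals so fed, was not followed by a called change on any of the genes. Counts on GFP averaged 2082 CPM in met-2 anti-GFP libraries and 67.1 CPM in met-2 controls at P0, a difference present in the targeted sequence itself. Over 14 comparisons of anti-GFP with control libraries, 0 of 108 tests of these genes passed in edgeR, 5 were under an unadjusted p of 0.05, and 0 passed in DESeq2. The smallest unadjusted p was 0.00652, for unc-22 in met-2 at P0 (36.6, 36.0 and 29.7 CPM in anti-GFP libraries, 14.1, 25.4 and 21.2 CPM in controls; adjusted p = 0.948). Few genes of any kind were called. The shares of all genes were 0.0079% in each of the 4 SX1263 genotypes at P0, 0.131%, 0%, 0.0962% and 0.00874% among F3 libraries (met-2, set-25, met-2;set-25, wild type), and 0.0937% and 0% among F15 libraries (met-2, wild type). In EG6089 they were 0.0110% in both genotypes at P0, and 0.0224% in met-2;set-25 and 0.0112% in wild type at F3. Tests of whether the treatment acted differently in a mutant and in wild type, 9 in all, called 0 of 72, with 1 under an unadjusted p of 0.05 and 0 in DESeq2; for met-2 they called 0.00874% of all genes at generation F3 and 0.00937% at F15, and for the other mutants and generations 0%.

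Other muscle genes moved with the 6 in met-2 less uniformly. Of 61 further names of muscle genes 59 had a row. In met-2 controls 13 were higher and 1 lower of 42 tested at P0, 15 higher and 2 lower of 41 at F3, and 10 higher and 4 lower of 38 at F15. Their median log2 change was 0.53 at P0, 0.49 at F3 and 0.32 at F15, against -0.01, 0.03 and -0.01 over all genes. Of all genes, 13.5% were higher and 9.93% lower at P0, 17.9% and 10.3% at F3, and 19.1% and 17.4% at F15. myo-5, a myosin heavy chain gene, had 28.1 to 201 CPM in met-2 and 0.119 to 0.503 CPM in wild type at F3 (8.76, SE 0.784, adjusted p = 1.85e-07). unc-15, the paramyosin gene of the thick filament core, had 0.288 to 50.2 CPM in met-2 and 1 count in total in wild type. lim-8, a LIM domain gene, had 113 ± 57.3 CPM in met-2 and 7.31 ± 0.588 CPM in wild type (3.95, SE 0.576, adjusted p = 5.39e-05), and alp-1, the ALP/Enigma gene, had 12.8 ± 10.7 CPM in met-2 and 1.07 ± 0.397 CPM in wild type (3.58, SE 0.712, adjusted p = 9.29e-04; SD, n = 3 each). The alp-1 groups overlapped, with 1.18 to 22.1 CPM in met-2 and 0.738 to 1.51 CPM in wild type. At F15 unc-87, a calponin-related gene, ranged between 2.25 and 425 CPM in met-2 and between 1.82 and 4.58 CPM in wild type (6.04, adjusted p = 0.0266), and atn-1, the alpha-actinin gene, had 6.11 ± 1.22 CPM in met-2 and 0.603 ± 0.241 CPM in wild type (3.27, SE 0.371, adjusted p = 1.13e-04).

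In the other mutants the further muscle genes were called in both directions. In set-25 at F3 1 was higher (tln-1, the talin gene, 1.40) and 1 lower (ketn-1, the kettin gene, -2.15) of 41. Of all genes 0.498% were higher there and 0.612% lower. In met-2;set-25 at F3 11 were higher and 5 lower of 41 in SX1263, and 13 higher and 7 lower of 31 in EG6089, beside the 18.6% higher and 19.7% lower of all genes in SX1263 and the 23.7% and 27.1% in EG6089. The kettin gene fell in both strains, to 3.42 ± 0.410 CPM in the double mutant, against 33.8 ± 4.13 CPM in wild type, in SX1263 (-3.37, SE 0.314, adjusted p = 2.81e-07), and to 0.444 ± 0.172 CPM in the double mutant, against 37.0 ± 6 CPM in wild type, in EG6089 (-6.04, SE 0.271, adjusted p = 3.63e-10; SD, n = 3 each). unc-105, a degenerin channel gene, was lower by -3.90 in SX1263, where egl-19, a calcium channel gene, was higher by 2.76 and lim-9, a LIM domain gene, by 2.01. lim-9 was also higher in EG6089 (4.54), as were pat-6, the actopaxin gene (3.13), and mlp-1, a muscle LIM protein gene (2.05).

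Genes of other cell types were counted beside the muscle genes, and their part in the met-2 changes was not tested. At F3 8 of 17 tested intestine genes were higher and 0 lower in met-2, 7 and 0 of 15 neuron genes, 4 and 0 of 9 epidermis genes, 6 and 1 of 11 sperm genes, and 0 and 2 of 23 germline genes, where 17.9% of all genes were higher and 10.3% lower. At P0 the counts were 9 and 0 of 17 intestine, 6 and 1 of 15 neuron, 4 and 0 of 9 epidermis, 2 and 1 of 15 sperm and 0 and 1 of 23 germline genes. Of all genes 13.5% were higher at P0 and 9.93% lower. At F15 the counts were 9 and 1 of 13 intestine, 3 and 1 of 14 neuron, 4 and 2 of 8 epidermis, 10 and 1 of 14 sperm and 0 and 9 of 23 germline genes, where 19.1% of all genes were higher and 17.4% lower. The germline genes summed to 3083 to 3765 CPM in met-2 at F15 and 3983 to 4682 CPM in wild type, and the sperm genes to 129 to 265 CPM in met-2 and 120.3 to 162 CPM in wild type. At F3 the summed level of the 19 intestine genes was 456 to 526 CPM in met-2 and 141 to 158 CPM in wild type, that of the 20 epidermis genes 222 to 298 CPM in met-2 and 49.3 to 57.6 CPM in wild type, and that of the 20 neuron genes 1499 to 2137 CPM in met-2 and 1305 to 1530 CPM in wild type. The 19 sperm genes summed to 266 to 400 CPM in met-2 and 126 to 150 CPM in wild type, and the 23 germline genes to 3527 to 3826 CPM in met-2 and 3778 to 3940 CPM in wild type. At 0 in every library of the F3 group were col-19, unc-47 and msp-31 in met-2, and dpy-7, col-19, col-12, col-10, mtl-2, unc-47, cha-1, cat-1, tph-1, msp-19 and msp-31 in wild type. The 10 muscle genes themselves summed to 580 to 1213 CPM of gene counts in met-2 at F3 and to 156 to 167 CPM in wild type.

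Across the 20 SX1263 groups the genes fell into those that moved with myo-3 and those that did not. Pearson's correlation of log2 group means, given as a description over groups that share genotypes and libraries, was 0.923 to 0.956 among myo-3, myo-1, unc-22, unc-89 and ttn-1, and 0.681 to 0.843 between pat-2 and these 5. lev-11 ran against them, with -0.560 to -0.356, and against pat-2 with -0.798. The 2 genes most like each member by the same measure, out of 12706, were fbn-1 (0.988) and C40H1.3 (0.983) for myo-3, cpna-2 (0.989) and sup-37 (0.977) for ttn-1, idpc-5 (0.975) and eff-1 (0.972) for unc-22, xbx-9 (0.977) and emb-9 (0.971) for unc-89, skpo-3 (0.968) and T01D3.6 (0.966) for myo-1, and jph-1 (0.968) and svh-1 (0.964) for pat-2. For lev-11 they were F53E10.5 (0.982) and Y110A2AL.4 (0.979), for unc-54 pals-18 (0.939) and clec-29 (0.935), and for pat-3 cyc-1 (0.905) and Y69A2AR.16 (0.904).

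Several members overlap other annotated genes, and the sources used here do not say whether reads were counted by strand. unc-22 shares 93 exon bases with ZK829.9 and pat-2 shares 41 with F54F2.9, both on the opposite strand. Neither neighbour was called in met-2 at P0 or F3: F54F2.9 averaged 22.3 ± 0.786 CPM in met-2 and 23.2 ± 2.05 CPM in wild type at F3, and ZK829.9 40.8 ± 18.7 CPM in met-2 and 31.8 ± 4.99 CPM in wild type (SD, n = 3 each). clec-89, which lies on the opposite strand within an intron of unc-89 and shares 0 exon bases with it, was higher in met-2 at F3, with 4.16 ± 2.52 CPM in met-2 and 0.151 ± 0.17 CPM in wild type (adjusted p = 2.83e-04; 90 counts in met-2 and 3 in wild type). exp-2, opposite to ttn-1 with 0 shared exon bases, had 0.187 ± 0.0883 CPM in met-2 at F3 and was at 0 in wild type.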

How the data were processed

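The deposited files hold raw read counts per gene, 1 file for each of the 83 libraries, made by the authors; the tools listed in the submitters' processing notes are Bowtie2, HTSeq, cutadapt, DESeq2 and FastQC, with the builds WBcel235 and ce11. Size selection, strand and the handling of reads that map to several places are not given in the sources used here. The 5 HTSeq counter rows, which took 50.8% to 62.0% of an SX1263 file and 29.2% to 42.4% of an EG6089 file, did not enter library sizes and tests. Rows were matched by gene ID to the WBcel235 annotation (20159 of 20449 in SX1263, 19902 of 20390 in EG6089), which gave names, positions and exon lengths. The members and gene lists were chosen with earlier results of these data known. The text names all 10 members, up to 4 called genes of the wider muscle list per mutant at F3 and up to 2 at F15, and the 2 genes most correlated with each member.

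Within each reporter strain and generation, and for generation steps over its control libraries, counts were fitted across all genes (edgeR 4.0.16, limma 3.58.1, R 4.3.3; TMM scaling; low counts filtered with a minimum count of 10 and a total of 15; 8943 to 12657 genes tested), and quasi-likelihood tests were adjusted by Benjamini-Hochberg within each comparison, 60 in all. SE was derived from the log2 change and its F statistic. Correlations and similar descriptions were computed in Python 3.11.15 with scipy 1.17.1. The code was tested on simulated data. Alternatives were DESeq2 1.42.0, RLE scaling, no low-count filter, the groups compared alone, the replicate number as a block, and each library left out in turn. No 2 libraries of a group held identical counts, and all 82 pairs differed by more than sampling noise.

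Same-numbered libraries deviated together (3 shared numbers, correlation over 0.1 in every pair) in 11 of 46 comparisons. Comparisons with wild type SX1263 anti-GFP at P0 shared only 2 numbers and were not counted, although their correlations were 0.199 to 0.559. In some of the 11, libraries with different numbers correlated as much. In set-25 against wild type controls at P0 such a pair reached 0.314, and the lowest same-number value was 0.188. In others they did not, as in met-2 anti-GFP against control at F3 (0.0116 and 0.134). The pairing comes from the data and not from the labels. In the 11 comparisons the block value stands beside the result where it changed the call or the count.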

Additional observations from a re-analysis of the deposited data

Results flagged for a closer look

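Among the 10 genes, the step between F15 and F3 differed between met-2 and wild type SX1263 controls for 3, by edgeR's quasi-likelihood test of the difference itself with Benjamini-Hochberg adjustment. The difference was -3.57 for unc-54 (SE 0.855, adjusted p = 0.0196), -2.97 for unc-22 (SE 0.496, adjusted p = 0.00113) and -4.38 for ttn-1 (SE 0.585, adjusted p = 1.02e-04) on the log2 scale (met-2 step minus wild type step, n = 3 libraries per group). unc-22 and ttn-1 kept their calls in every alternative, with adjusted p up to 0.0351 and 0.0267. The unc-54 call was lost in 5 alternatives, with an adjusted p of up to 0.0720. Animals of F3 and F15 grew on OP-50, and passage and library preparation between these generations were not tested.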

How the results depend on the processing

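The direction of every called change of a member was kept in all alternatives run. Of 101 calls, DESeq2 kept 98, RLE scaling 97, no low-count filter 94 and the replicate block 99; the groups compared alone kept 76 of 95, and leaving out 1 library kept 528 of 614. The cause of the changed counts below was not tested. In SX1263 controls at P0, set-25 against wild type had 0 genes called and 1 with the replicate block, DESeq2 or the groups alone; met-2;set-25 against wild type had 1, against 2 with the replicate block, 3 with DESeq2 and 2 with the groups alone; met-2;set-25 against set-25 had 0, against 1 in those 3 fits; met-2;set-25 against met-2 had 7, against 4 with the groups alone and 8 with the replicate block. At F3, met-2;set-25 against wild type had 2 in controls, against 1 with RLE, no filter, DESeq2 or the groups alone, and 2 in anti-GFP libraries, against 1 with the groups alone; against set-25 it had 0, and 1 with the groups alone. In EG6089 at P0 the double mutant had 2 in controls, and 4 with the replicate block; anti-GFP in wild type had 0, and 1 with no filter. F3 against P0 had 1 in met-2, and 0 with no filter, the block or the groups alone; in wild type EG6089 it had 0, and 1 in those 3 fits. F15 against F3 had 8 in met-2 and 0 in wild type, and 3 and 1 with the groups alone. The replicate block changed no other count by more than 1.5 times.

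With single libraries left out, the counts ran over 0 to 0 for set-25 (P0 anti-GFP, 1 with all libraries); 1 to 2 (P0 control), 1 to 3 (P0 anti-GFP), 1 to 2 (F3 control) and 1 to 2 (F3 anti-GFP) for met-2;set-25 in SX1263; 4 to 7 for met-2;set-25 against met-2 at P0; 0 to 1 for anti-GFP in met-2 at P0 and at F3, the 1 arising without control replicate 2; 1 to 3 (P0 control) and 0 to 3 (P0 anti-GFP) for EG6089; 0 to 1 for F3 against P0 in met-2 and in met-2;set-25 EG6089; and 5 to 8 for F15 against F3 in met-2. Scaling by total counts moved group means of at least 5 CPM by factors of 0.784 to 1.14. Genes near 3 counts per library, myo-2 throughout and myo-3 and myo-1 outside met-2, were too low to show a difference at this depth.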
